A study of Mus musculus with 36 samples.

Results

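The CHD chromatin remodeller family was followed through a series of Chd8 mutant mouse forebrains. Its 10 members are the genes Chd1 to Chd9 and Chd1l, chosen by name out of the 46603 genes counted, and each had enough counts to be tested at both stages. At embryonic day 12.5 (E12.5) the neocortex of single C57Bl/6J embryos was sequenced from 4 genotypes, with 3 embryos each. These were wildtype Chd8+/+, heterozygous Chd8+/- with 1 null allele, the mild hypomorph Chd8neo/neo with a selection cassette in both alleles, and the severe hypomorph Chd8neo/- with 1 cassette allele and 1 null allele. At E10.5 telencephalic vesicles, with 2 embryos pooled per library, were compared between 3 Ctrl libraries, labelled as a combination of Chd8f/f and Chd8 f/+ embryos, and 3 cKO libraries, in which sox1-Cre deletes both floxed copies of Chd8. All 3 Ctrl libraries therefore carried floxed alleles. Sox1-Cre is active in the neural lineage, so blood, vessels and mesenchyme in the vesicles keep an undeleted gene. The embryos of a genotype came from different litters.

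CHD proteins are ATP-dependent motors that slide, evict or space nucleosomes, and most carry paired chromodomains that read histone tails. CHD1 and CHD2 travel with transcribing polymerase and space nucleosomes over gene bodies. CHD3, CHD4 and CHD5 are alternative motors of the NuRD complex, which couples remodelling to histone deacetylation; CHD4 is the common form in dividing progenitors, and CHD3 and CHD5 take over as neurons mature. CHD6, CHD7, CHD8 and CHD9 form a further subfamily that acts at promoters and enhancers. CHD7 is mutated in CHARGE syndrome, and CHD8 is one of the genes most often mutated in autism. CHD1L, also called ALC1, lacks chromodomains and is recruited to damaged DNA by poly(ADP-ribose). A question put to such a series is how far each allele lowers Chd8 mRNA and whether a relative rises when Chd8 falls.

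The null and floxed alleles turn on exon 3 of Chd8, so the sequence around it shows what a gene-level count can see. In GRCm38 the gene lies on the minus strand of chromosome 14, from 52198151 to 52257723. Exon 3 of transcript Chd8-201 (GENCODE M21) spans chr14:52232545-52232930 and exon 4 spans chr14:52231438-52231552. Both are coding exons. The lines below give the mRNA, 5′ to 3′, across the splice that keeps exon 3 and across the splice that skips it. Capitals mark the first bases of exon 4, which are the same in both, and lower case marks the end of the exon before it.
Exon 3 to exon 4: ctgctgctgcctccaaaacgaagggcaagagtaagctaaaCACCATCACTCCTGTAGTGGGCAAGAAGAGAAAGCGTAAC
Exon 2 to exon 4: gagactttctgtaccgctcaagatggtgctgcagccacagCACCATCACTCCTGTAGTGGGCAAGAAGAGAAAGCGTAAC

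Exon 3 is 386 bases long, 2 more than a multiple of 3, so joining exon 2 to exon 4 shifts the reading frame. Translated from the annotated start, such a transcript stops after 419 codons, against 2582 in the intact one, and 407 complete codons precede exon 3. The exon makes up 4.71% of this transcript, whose total length is 8190 bases, and 80.4% of the transcript lies downstream of it. A transcript that skips exon 3 therefore still counts as Chd8 over nearly all of its length. The study's RT-PCR primers test the splice itself, since primer F lies in exon 3 and primer R in exon 4. They are shown because they measure what the counts cannot.
Primer F: cagaggaggagggtgaaaagaaac
Primer R: gagttgtcagacgatgtgttacgc

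Chd8 mRNA was lower than in controls in every mutant group. Levels are given as CPM, the share of a library's counts that falls on a gene, put on a common scale by TMM normalisation. Each difference was taken from an edgeR quasi-likelihood fit of all genes. A gene with a Benjamini-Hochberg adjusted p under 0.05 is called higher or lower. In Chd8+/+ neocortices the 3 libraries gave 237, 235 and 239 CPM. Chd8+/- neocortices gave 165, 170.2 and 165 CPM, the lowest at 69.4% and the highest at 71.8% of the wildtype mean. The values in Chd8neo/neo neocortices were 213, 203 and 211 CPM, or 85.4% to 89.9% of that mean. Chd8neo/- neocortices gave 158, 147 and 142 CPM, or 59.9% to 66.8%. No mutant library reached a wildtype library. In these counts over the whole gene the mild hypomorph lay above the heterozygote with no overlap. The log2 fold change against wildtype was -0.51 (95% interval -0.60 to -0.42, edgeR adjusted p = 0.000138) in Chd8+/-, -0.18 (-0.27 to -0.09, edgeR adjusted p = 0.0201) in Chd8neo/neo and -0.67 (-0.76 to -0.58, edgeR adjusted p = 8.59e-07) in Chd8neo/-. The Chd8+/- and Chd8neo/- calls held in each of 17 alternative analyses. That in Chd8neo/neo held in 11 and was lost without Chd8+/+ replicate 2, Chd8+/+ replicate 3 or Chd8neo/neo replicate 2, with edgeR adjusted p from 0.0650 to 0.0987.

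**Figure D1:**
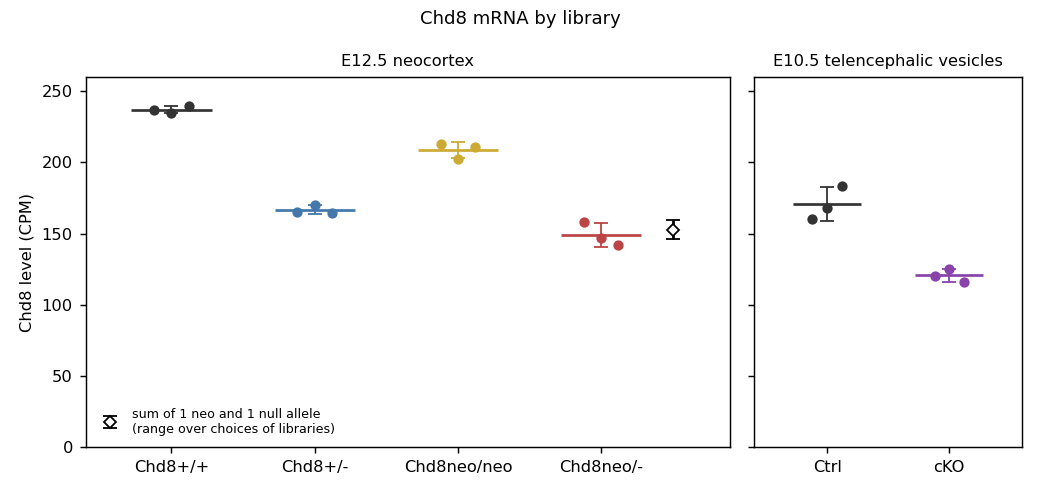
Chd8 level in CPM for each library (points), with the mean (bar) and SD (whisker, n = 3) of each group at E12.5 and E10.5. The open diamond is the sum of 1 neo and 1 null allele, 153 CPM, with its range of 146 to 159 CPM, and it lies among the Chd8neo/- libraries.

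Because the 4 genotypes combine 3 kinds of allele, the level of each allele could be read from the first 3 groups and the fourth set beside their sum. A wildtype allele corresponded to 119 CPM, which is the wildtype mean divided between 2 alleles. Subtracting it from the heterozygote left 48.2 CPM for the null allele, between 44.9 and 52.9 CPM over all choices of 1 library per genotype. This was 40.6% of a wildtype allele. The neo allele, from the mild hypomorph, corresponded to 105 CPM or 88.1%. This is a share of counts over the whole gene, not of intact mRNA. Such counts do not separate mRNA spliced from exon 3 into the cassette, which the paper detected. The paper also reported less Chd8 transcript by RT-PCR at earlier stages, and less protein at E12.5, in Chd8neo/neo than in Chd8+/-. One neo and one null allele sum to 153 CPM, and 27 choices of 1 library from each of the 3 groups gave 146 to 159 CPM. The severe hypomorph was measured at 149 ± 8.38 CPM (SD, n = 3), a difference of -3.58 CPM from the sum, less than its own SD. The difference was -8.35 CPM without Chd8neo/- replicate 1, the highest of its group, 0.02 CPM without replicate 3 and 3.56 CPM with the trend with exon length, described below, removed. This is a description of levels with no test. It assumes that an allele gives the same amount of mRNA whatever allele it is paired with.

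In the E10.5 vesicles Chd8 was measured at 160, 168 and 184 CPM in Ctrl and at 121, 125 and 116 CPM in cKO libraries. The groups did not overlap. The fall of -0.50 on the log2 scale (95% interval -0.64 to -0.36, edgeR adjusted p = 0.00109) left cKO libraries at 67.9% to 73.5% of the Ctrl mean, and the call held in 16 of 16 alternatives. In counts over the whole gene, mRNA that lacks exon 3, mRNA from cells the Cre does not reach and intact mRNA cannot be told apart. In bulk tissue, fewer cells of a type and less RNA per cell cannot be told apart either, here and for every gene below.

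No relative of Chd8 was called higher than in the controls in any of the 4 mutant groups, although single alternatives described below called Chd1l, Chd7 or Chd4 higher. In Chd8+/- neocortices 1 of the 10 members was lower, Chd8 itself, and 0 were higher; of all 18810 genes tested, 0.00532% were lower and 0.0159% higher. Among the 9 relatives, Chd3 alone had an unadjusted edgeR p under 0.05, as had 1190 of all 18810 genes. In Chd8neo/neo neocortices 4 members were lower (Chd3, Chd6, Chd8 and Chd9) and 0 higher, against 4.45% and 3.71% of all genes. In Chd8neo/- neocortices 5 members were lower (Chd2, Chd3, Chd6, Chd8 and Chd9) and 0 higher, against 5.99% and 5.48%. At E10.5, 2 members were lower in cKO (Chd3 and Chd8) and 0 higher, against 5.7% and 5.75% of 18435 genes. The median log2 fold change of the 9 relatives was -0.05 in Chd8+/-, -0.03 in Chd8neo/neo, -0.18 in Chd8neo/- and -0.001 in cKO. The median over all genes lay between -0.002 and 0.005 in the same comparisons. The 3 comparisons at E12.5 share their wildtype libraries.

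**Figure D2:**
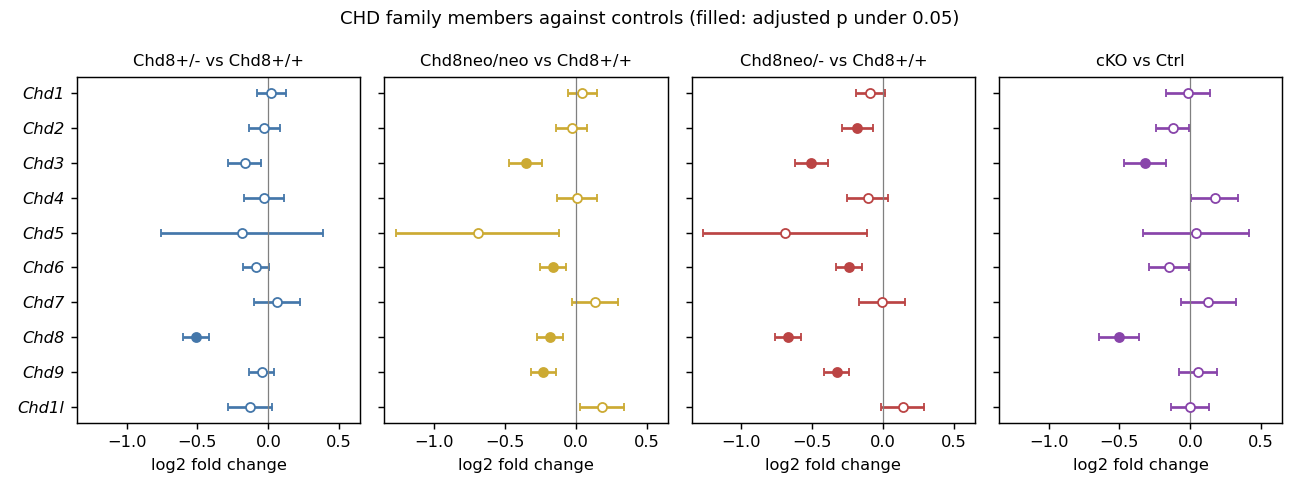
Log2 fold change of each member against its controls, with its 95% interval, in the 3 mutant genotypes at E12.5 and in cKO at E10.5. Filled points have an edgeR adjusted p under 0.05; Chd8 is filled in all 4 panels, Chd3 in 3 and Chd9 in 2, and no filled point lies above 0.

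Chd3, a motor of NuRD that rises in differentiating neurons, was the relative with the smallest adjusted p in both hypomorphs and in cKO. It was measured at 567, 552 and 557 CPM in Chd8+/+ and at 517, 483 and 493 CPM in Chd8+/- neocortices. The Chd8neo/neo libraries gave 415, 419 and 478 CPM, and the Chd8neo/- libraries 382, 400 and 398 CPM. Each successive genotype in this order lay below the one before it with no overlap between libraries. In Chd8+/- the difference of -0.17 (SE 0.054) did not pass the threshold (edgeR adjusted p = 0.649). Chd3 fell by 0.35 on the log2 scale in Chd8neo/neo (SE 0.054, edgeR adjusted p = 0.00281) and by 0.51 in Chd8neo/- (SE 0.054, edgeR adjusted p = 9.23e-05), and both calls held in 17 of 17 alternatives. In the E10.5 vesicles it was measured at 203, 201 and 230.3 CPM in Ctrl and 161, 169.7 and 177 CPM in cKO libraries, again with no overlap. It fell by 0.32 (SE 0.068, edgeR adjusted p = 0.0135). That call was lost without Ctrl replicate 3 (log2 fold change -0.26, edgeR adjusted p = 0.0595) or without cKO replicate 2 (-0.32, 0.0692).

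The other NuRD motors, Chd4 and Chd5, were not called against the controls in any of the 4 mutant groups. Chd4, the motor of NuRD in progenitors and the most abundant member, gave 726, 696 and 809 CPM in Chd8+/+ and 693, 719 and 657 CPM in Chd8neo/- libraries, which overlap. Its log2 fold change was 0.01 in Chd8neo/neo (95% interval -0.13 to 0.15) and -0.11 in Chd8neo/- (-0.25 to 0.03). In cKO it was 0.17 (0.005 to 0.34, edgeR adjusted p = 0.17), which passed the threshold in 1 of 16 alternatives, without Ctrl replicate 2 (0.24, edgeR adjusted p = 0.0412). Chd5, the neuronal motor, was measured at 39.1, 43.1 and 31.1 CPM in Chd8+/+, at 22.7, 15.8 and 31.8 CPM in Chd8neo/neo and at 23.4, 21.7 and 25.02 CPM in Chd8neo/- neocortices. Its log2 fold change of -0.69 in both hypomorphs was the lowest of the family, but the intervals ran from -1.27 to -0.12 and the edgeR adjusted p was 0.13 and 0.118. Without Chd8neo/neo replicate 3, its highest library there, Chd5 was called lower in Chd8neo/neo (-0.99, edgeR adjusted p = 0.0261). All Chd8neo/- libraries lay below all wildtype ones, and Chd5 was called lower there in 2 of 17 alternatives, by DESeq2 (adjusted p = 0.0434) and with only the 2 groups in the edgeR fit (adjusted p = 0.00317). In the E10.5 vesicles Chd5 stood at 1.35 to 1.80 CPM, with 519 counts over all 6 libraries, so that its interval in cKO was -0.33 to 0.41.

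**Figure D3:**
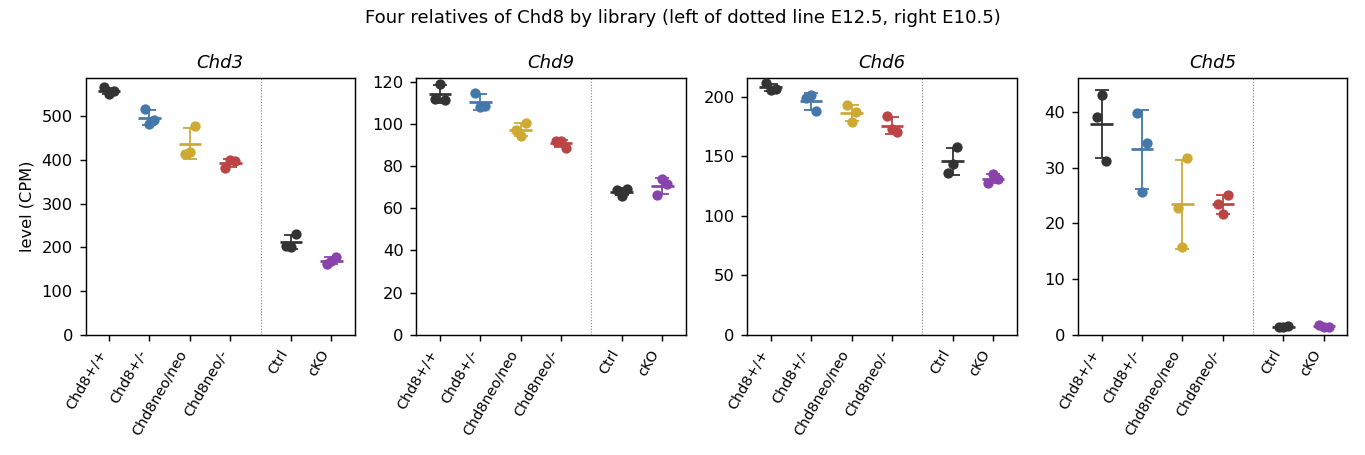
Levels of Chd3, Chd9, Chd6 and Chd5 in CPM for each library (points), with the mean (bar) and SD (whisker, n = 3) of each group; the vertical axes start at 0. Chd3 runs from 552 to 567 CPM in Chd8+/+ down to 382 to 400 CPM in Chd8neo/-, whereas the Chd5 libraries of Chd8+/+ and Chd8neo/neo overlap.

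Per length of exon, the make-up of the NuRD motors differed between the groups. Chd3 made up 40.7% ± 1.62 (SD, n = 3) of the summed RPKM (CPM per 1000 bases of exon) of Chd3, Chd4 and Chd5 in Chd8+/+, 38.5% ± 1.40 in Chd8+/-, 35.1% ± 3.38 in Chd8neo/neo and 34.5% ± 1.14 in Chd8neo/- neocortices. The share of Chd4 was 56.9% ± 2.1 in Chd8+/+ and 63.7% ± 1.27 in Chd8neo/-. In the E10.5 vesicles Chd3 made up 23.5% ± 2.19 in Ctrl and 17.9% ± 0.862 in cKO libraries. These shares were not tested, and they move with Chd4 as well as with Chd3: in cKO the mean of Chd3 went from 25.1 to 20.06 RPKM and that of Chd4 from 81.6 to 91.95 RPKM.

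Some markers of neurons and progenitors differed between the same groups. The summed level of 8 neuron markers (Tubb3, Dcx, Stmn2, Map2, Neurod1, Neurod6, Tbr1 and Reln) was 3572 to 4258 CPM in Chd8+/+, 3652 to 4307 CPM in Chd8+/-, 2931 to 3431 CPM in Chd8neo/neo and 3265 to 3648 CPM in Chd8neo/- neocortices, the last overlapping wildtype. Of the 8, Dcx and Map2 were lower in both hypomorphs and 0 were higher. Of 7 progenitor markers, Sox2 and Pax6 were higher in Chd8neo/neo and 0 were called in Chd8neo/-. Of all genes 3.71% were higher and 4.45% lower in Chd8neo/neo, and 5.48% and 5.99% in Chd8neo/-. Chd8neo/neo replicate 3 had the highest neuron sum of its group and also the highest Chd3 and Chd5. The same held for Chd8+/- replicate 1 (4307 CPM). In the other genotypes Chd5 was also highest in the library with the highest neuron sum, but Chd3 was not. Chd8+/+ replicate 2 had the highest neuron sum of its group, 4258 CPM, and the lowest Chd3, 552 CPM. Chd8neo/- replicate 2 had the lowest neuron sum of its group, 3265 CPM, and the highest Chd3, 400 CPM. Pearson correlations were taken over the 12 libraries at E12.5, which come from 4 genotypes in sets of 3. The log2 CPM of a member was set against the log2 of the neuron sum. The coefficient was 0.81 for Chd5, 0.73 for Chd9, 0.67 for Chd3, 0.47 for Chd6, 0.1 for Chd2 and 0.01 for Chd8. It was -0.31 for Chd4, -0.33 for Chd1, -0.63 for Chd7 and -0.87 for Chd1l. With the log2 sum of the 7 progenitor markers it ran from -0.89 for Chd5 to 0.57 for Chd1l. At E10.5 the neuron sums were 196 to 364 CPM in Ctrl and 231 to 326 CPM in cKO libraries, which overlap. The part of neuron content in the values of Chd3 and Chd5 was not tested at either stage.

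Chd9 and Chd6, which belong to the subfamily of Chd8, were lower in both hypomorphs. Chd9 gave 112, 119 and 111 CPM in Chd8+/+ and 115, 108 and 109 CPM in Chd8+/- neocortices, which overlap. It gave 97.1, 94.4 and 100.4 CPM in Chd8neo/neo and 91.8, 92.0 and 88.8 CPM in Chd8neo/- libraries, all under the wildtype ones. It fell by 0.23 on the log2 scale in Chd8neo/neo (SE 0.041, edgeR adjusted p = 0.00628) and by 0.33 in Chd8neo/- (SE 0.041, edgeR adjusted p = 0.000274). In the E10.5 vesicles, where the allele, stage and dissection differ, its log2 fold change was 0.06 (95% interval -0.08 to 0.19, edgeR adjusted p = 0.599). Chd6 gave 211, 205 and 207 CPM in Chd8+/+, 193, 179 and 187 CPM in Chd8neo/neo and 184, 173 and 170.4 CPM in Chd8neo/- neocortices, with both hypomorphs below all wildtype libraries. It fell by 0.16 in Chd8neo/neo (SE 0.043, edgeR adjusted p = 0.0378) and by 0.24 in Chd8neo/- (SE 0.043, edgeR adjusted p = 0.00318). The first of these calls held in 6 of 17 alternatives: without any 1 of the wildtype libraries, or of Chd8neo/neo replicates 1 and 2, Chd6 had an edgeR adjusted p between 0.055 and 0.16. The second held in 15 of 17. In cKO the log2 fold change of Chd6 was -0.15 (-0.29 to -0.009, edgeR adjusted p = 0.159).

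Chd7, the CHARGE syndrome gene, was not called in any comparison. It was measured at 236, 207 and 253 CPM in Chd8+/+, at 264, 265 and 237 CPM in Chd8neo/neo and at 230.1, 245 and 217 CPM in Chd8neo/- neocortices, and the groups overlap. The log2 fold change was 0.14 in Chd8neo/neo (95% interval -0.02 to 0.30, edgeR adjusted p = 0.272), -0.008 in Chd8neo/- (-0.17 to 0.15) and 0.13 in cKO (-0.07 to 0.32, edgeR adjusted p = 0.381). These intervals leave room for a rise of up to about 0.3 on the log2 scale. The summed RPKM of Chd6, Chd7, Chd8 and Chd9 was 52.3 ± 1.54 in Chd8+/+, 47.7 ± 1.52 in Chd8+/-, 49.6 ± 1.11 in Chd8neo/neo and 43.1 ± 1.65 in Chd8neo/- neocortices (SD, n = 3).

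Chd1 and Chd2, the motors linked to transcription elongation, moved little. Chd1 was not called in any comparison, and its 95% interval against controls stayed between -0.19 and 0.15 in the 4 mutant groups. Chd2 gave 154, 139 and 149 CPM in Chd8+/+ and 129, 136 and 125 CPM in Chd8neo/- neocortices, which do not overlap, and it fell by 0.18 on the log2 scale (SE 0.051, edgeR adjusted p = 0.0332). This call held in 9 of 17 alternatives; without Chd8+/+ replicate 1 or 3, or Chd8neo/- replicate 1 or 3, the edgeR adjusted p of Chd2 was 0.104 to 0.134. In Chd8neo/neo its log2 fold change was -0.03 (95% interval -0.14 to 0.08). An unnamed gene on the same strand overlaps Chd2, with 3207 counts at E12.5 against 81411 for Chd2, and reads from the overlap cannot be assigned.

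Chd1l, the remodeller recruited to DNA breaks, was called higher in both hypomorphs against heterozygotes, but not against wildtype. It gave 23.9, 20.7 and 23.5 CPM in Chd8+/+ and 19.9, 20.95 and 21.4 CPM in Chd8+/- neocortices. The hypomorphs gave 28.5, 25.4 and 23.7 CPM (Chd8neo/neo) and 25.9, 24.3 and 24.9 CPM (Chd8neo/-), above every heterozygous library. The Chd8neo/- libraries also lay above every wildtype library, while those of Chd8neo/neo overlapped them. Against Chd8+/- the log2 fold change was 0.31 in Chd8neo/neo (SE 0.072, edgeR adjusted p = 0.0283) and 0.27 in Chd8neo/- (SE 0.072, edgeR adjusted p = 0.0456). Against Chd8+/+ it was 0.19 (95% interval 0.03 to 0.34, edgeR adjusted p = 0.121) and 0.14 (-0.02 to 0.29, edgeR adjusted p = 0.239). Without Chd8neo/neo replicate 3 it was called higher in Chd8neo/neo than in wildtype (0.23, edgeR adjusted p = 0.0474). The first Chd1l call was lost when any 1 of the libraries was left out other than Chd8neo/neo replicate 3 (edgeR adjusted p from 0.0502 to 0.116), and the second when any was (0.0797 to 0.163). In cKO the value was -0.001 (-0.14 to 0.13).

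Comparisons between the mutants set the alleles against each other directly. In Chd8neo/neo against Chd8+/-, 2 members were higher (Chd8 and Chd1l) and 1 lower (Chd9), against 2% and 3.28% of all genes. Counts of Chd8 over the whole gene were 0.33 higher on the log2 scale (SE 0.043, edgeR adjusted p = 0.00897), whereas Chd9 was lower at -0.18 (SE 0.041, edgeR adjusted p = 0.0267). Chd3 stood at -0.19 and did not pass (SE 0.054, edgeR adjusted p = 0.0589), except in 3 alternatives, among them that without Chd8neo/neo replicate 3 (-0.26, edgeR adjusted p = 0.00405). The Chd9 call was lost without Chd8+/- replicate 1 or 3 or Chd8neo/neo replicate 1 or 2 (edgeR adjusted p from 0.0582 to 0.109). In Chd8neo/- against Chd8neo/neo, 1 member was lower and 0 higher, against 0.00532% and 0.0106% of all genes. That member was Chd8, at -0.49 (SE 0.043, edgeR adjusted p = 0.000239). All relatives apart from Chd5 (0.001) had a log2 fold change below 0 there, from -0.15 to -0.05, and none was called. Of all genes 49% were below 0 there. An unadjusted edgeR p under 0.05 was found for 5 of the 10 members, Chd8 among them, and for 1585 of all 18810 genes. In Chd8neo/- against Chd8+/-, 4 members were lower and 1 higher, against 3.25% and 2.18% of all genes. The lower ones were Chd3 at -0.34 (SE 0.054, edgeR adjusted p = 0.00424), Chd9 at -0.28 (SE 0.041, 0.00338), Chd8 at -0.16 (SE 0.043, 0.042) and Chd6 at -0.16 (SE 0.043, 0.049). Of these Chd3 kept its call in 17 of 17 alternatives and Chd9 in 15. Chd8 kept it in 4 and lost it without any 1 library other than Chd8neo/- replicate 1 (0.0828 to 0.159), and Chd6 kept it in 3 and lost it without any 1 library (0.0537 to 0.171).

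The genotypes were also put in the order Chd8+/+, Chd8+/-, Chd8neo/neo, Chd8neo/-, by which the study ranks loss of the protein, and a single slope per step was fitted over the 12 libraries. With this test 6 members fell along the order (Chd2, Chd3, Chd5, Chd6, Chd8 and Chd9) and 0 rose, against 8.25% and 7.41% of all genes. Chd3 fell by 0.17 per step (SE 0.017, edgeR adjusted p = 1.27e-05), Chd9 by 0.12 (SE 0.014, edgeR adjusted p = 9.29e-05) and Chd6 by 0.08 (SE 0.013, edgeR adjusted p = 0.00109). The slope of Chd8 itself was as steep at -0.17, with an SE of 0.0499 and an edgeR adjusted p of 0.0416. Its counts over the whole gene do not follow the order, because Chd8neo/neo lies above Chd8+/-. Chd5 had a slope of -0.26 (SE 0.076, edgeR adjusted p = 0.0428) and Chd2 one of -0.05 (SE 0.018, edgeR adjusted p = 0.0475). In 22 alternatives Chd3 and Chd9 kept their calls in all, Chd6 in 20, Chd8 in 10 and Chd2 and Chd5 in 9 each. Leaving out any 1 of the Chd8+/+ or Chd8neo/- libraries ended the call of Chd8 (0.0830 to 0.111) and of Chd5 (0.0527 to 0.117). Chd2 lost its call in 8 of the 12 fits that left out 1 library (0.0565 to 0.138). Chd5 lost it also without Chd8+/- replicate 1 or 3 or Chd8neo/neo replicate 1 (0.0563 to 0.0669).

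The members are long genes, with 4309 (Chd1l) to 19093 (Chd6) bases of exon, and the libraries of the hypomorphs differed from wildtype in a trend with exon length. When that trend was taken out of each library, Chd3 remained lower in Chd8neo/neo (-0.29, edgeR adjusted p = 0.0101) and in Chd8neo/- (-0.42, 0.00044), and Chd9 in Chd8neo/- (-0.21, 0.00841). Chd8 remained lower in Chd8neo/- (-0.52, 8.7e-06), but in Chd8neo/neo it moved to -0.065 (0.349). The calls of Chd6 in both hypomorphs, of Chd9 in Chd8neo/neo and of Chd2 in Chd8neo/- were lost as well, with log2 fold changes of -0.03 and -0.07 for Chd6, -0.14 for Chd9 and -0.05 for Chd2. Chd7 was then called higher in Chd8neo/neo (0.24, edgeR adjusted p = 0.0458). The exon length of Chd8 in the tables, 16097 bases, is the union of all its annotated exons, against 8509 bases in its longest principal transcript, so this correction treats Chd8 as a longer gene than its main mRNA. The same holds for Chd6 (19093 against 10515 bases), Chd2 (12999 against 9085) and Chd7 (13786 against 10216), but not for Chd9 (11565 against 12008). In cKO the removal took Chd8 to -0.55 and Chd3 to -0.36, and Chd6 was then called lower at -0.20 (edgeR adjusted p = 0.0255).

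**Figure D4:**
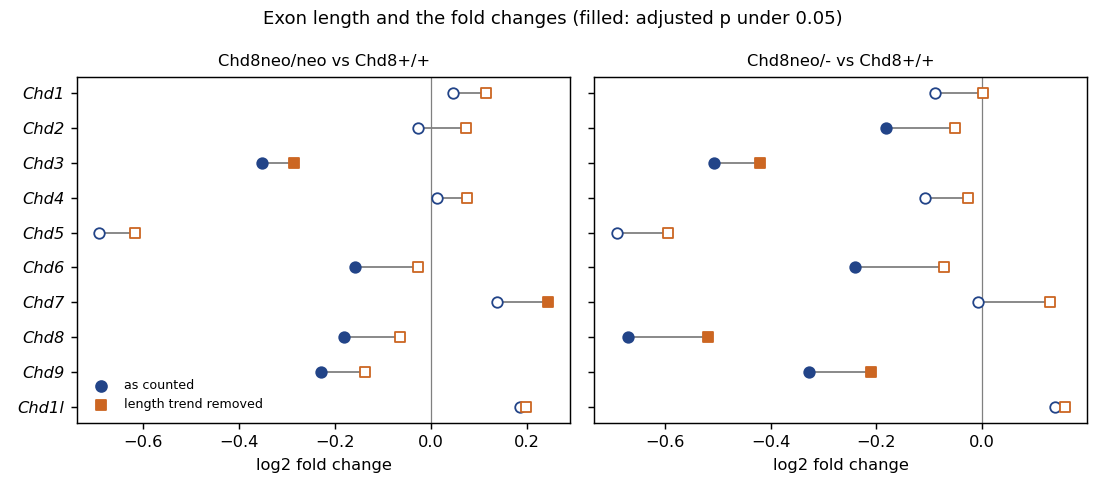
Log2 fold change of each member in the mild and severe hypomorphs against wildtype, as counted (circles) and with the trend with exon length removed (squares); filled symbols have an edgeR adjusted p under 0.05. Chd3 stays filled in both panels, Chd6 does not, and Chd7 becomes filled at 0.24 in Chd8neo/neo.

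Per length of exon the family spans a wide range, and Chd8 sits in its middle. In Chd8+/+ neocortices Chd4 stood highest at 92.8 ± 7.25 RPKM, followed by Chd3 at 66.2 ± 0.893, Chd1 at 16.96 ± 0.75, Chd7 at 16.8 ± 1.69 and Chd8 at 14.7 ± 0.15 RPKM (SD, n = 3). Below them came Chd2 at 11.3 ± 0.571, Chd6 at 10.9 ± 0.156, Chd9 at 9.86 ± 0.368, Chd1l at 5.27 ± 0.398 and Chd5 at 3.94 ± 0.637 RPKM. Libraries of Chd1 and Chd7 overlapped, as did those of Chd2 and Chd6, so the order within these pairs is not set. In Chd8+/- and Chd8neo/- neocortices Chd8 fell to the sixth place, at 10.4 ± 0.189 and 9.26 ± 0.52 RPKM, overlapping Chd6 in both and Chd2 in Chd8neo/-. Chd8 made up 5.92% of the summed RPKM of the family in Chd8+/+, 4.43% in Chd8+/-, 5.60% in Chd8neo/neo and 4.42% in Chd8neo/- neocortices. With the length of the principal transcript in place of all annotated exons, 4 members changed place in Chd8+/+, and Chd8 stood in the third at 27.9 ± 0.283 RPKM.

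**Figure D5:**
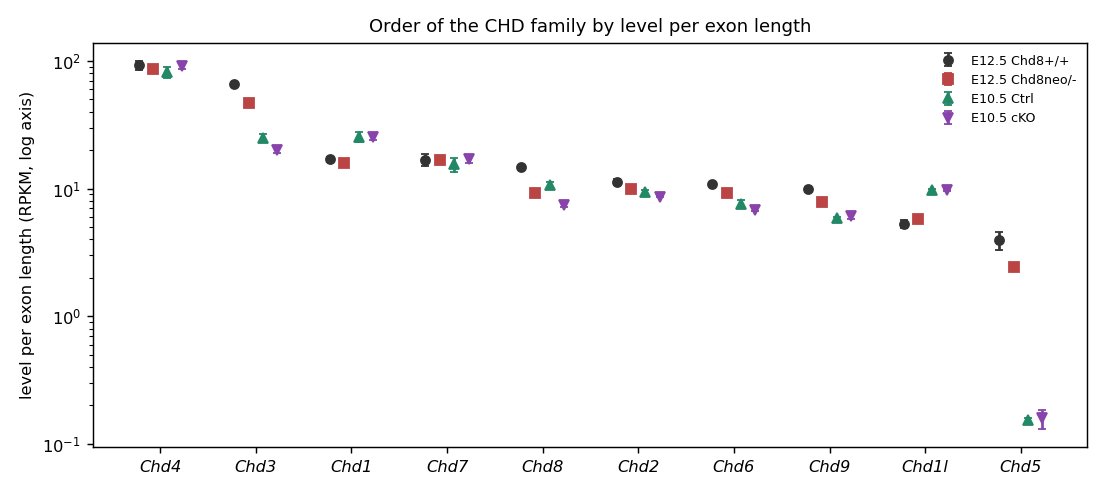
Level of each member per exon length (mean RPKM on a log axis, whiskers are SD, n = 3) in 4 of the groups, ordered by the level in Chd8+/+. Chd4 lies near 90 RPKM in all of them, and Chd5 is at 3.94 RPKM in Chd8+/+ neocortex and 0.153 RPKM in the Ctrl vesicles of E10.5.

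The order at E10.5 is set beside this without a test, since the stages were scaled separately and differ in dissection and pooling. In Ctrl vesicles Chd4 was again first at 81.6 ± 7.41 RPKM. Chd1 (25.6 ± 2.23) and Chd3 (25.1 ± 1.93) overlapped in the next places, followed by Chd7 at 15.5 ± 1.89, Chd8 at 10.6 ± 0.746, Chd1l at 9.68 ± 0.329, Chd2 at 9.43 ± 0.274, Chd6 at 7.62 ± 0.583, Chd9 at 5.87 ± 0.155 and Chd5 at 0.153 ± 0.005 RPKM. Chd2, Chd3, Chd5, Chd6, Chd8 and Chd9 thus had lower levels there than in the E12.5 wildtype, and Chd1 and Chd1l had higher ones. The libraries of these members did not overlap between the stages, while those of Chd4 and Chd7 did. In cKO vesicles Chd8 stood in the seventh place at 7.49 ± 0.297 RPKM.

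The partners of these motors were described from lists of their own. Of 12 NuRD subunits other than the motors, 1 was higher in Chd8neo/neo, Mta2 at 0.14 on the log2 scale (SE 0.039, edgeR adjusted p = 0.0391), and 1 lower in Chd8neo/-, Mta3 at -0.17 (SE 0.047, edgeR adjusted p = 0.0329). In cKO 1 was higher, Mbd3, which bridges the complex, at 0.24 (SE 0.067, edgeR adjusted p = 0.0392). Mbd3 was also higher in Chd8neo/neo than in Chd8+/- (0.17, SE 0.042, edgeR adjusted p = 0.0349), and Mta3 fell by 0.05 per step of the genotype order (SE 0.016, edgeR adjusted p = 0.0419). Of all genes 3.71% were higher in Chd8neo/neo, 5.99% lower in Chd8neo/- and 5.75% higher in cKO. In Chd8neo/neo against Chd8+/- 2% were higher, and 8.25% fell along the order. The medians of the list were 0.07, 0.06 and 0.01 in Chd8neo/neo, Chd8neo/- and cKO. Each of the NuRD calls was lost in at least 6 of the alternatives run for it.

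Of 13 genes for proteins reported to work with CHD8, such as the MLL complex, CTCF, β-catenin and p53, 0 were called in Chd8+/- or cKO. In Chd8neo/neo 1 was higher, against 3.71% of all genes, and in Chd8neo/- 1 was lower, against 5.99%. In Chd8neo/neo against Chd8+/- 1 was higher and along the order 1 was lower, against 2% and 8.25%. Wdr5, the core subunit of MLL complexes, was higher in Chd8neo/neo than in Chd8+/+ (0.14, SE 0.040, edgeR adjusted p = 0.0432) and than in Chd8+/- (0.15, SE 0.040, edgeR adjusted p = 0.0439), calls kept in 4 and 3 of 17 alternatives. Kansl1, the scaffold of the NSL acetyltransferase complex, was lower in Chd8neo/- at -0.14 (SE 0.038, edgeR adjusted p = 0.0291) and fell by 0.05 per step of the order (SE 0.012, edgeR adjusted p = 0.0168). These calls were kept in 7 of 17 and 18 of 22 alternatives.

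Of 21 ATPases of other SNF2 families, 1 was higher and 2 lower in Chd8neo/neo, 1 higher and 3 lower in Chd8neo/-, and 3 higher and 6 lower in cKO, with medians of 0.06, 0.04 and 0.08. Of all genes 3.71% were higher and 4.45% lower in Chd8neo/neo, 5.48% and 5.99% in Chd8neo/-, and 5.75% and 5.7% in cKO. Atrx, which deposits histone H3.3 in heterochromatin, fell by 0.17 on the log2 scale in Chd8neo/neo (SE 0.042, edgeR adjusted p = 0.0289) and by 0.25 in Chd8neo/- (SE 0.042, edgeR adjusted p = 0.00234). These calls of Atrx were kept in 12 and 15 of 17 alternatives, and its smallest values among them were -0.007 and -0.065. Smarca1, the ISWI motor SNF2L of neurons, fell by 0.31 in Chd8neo/neo (SE 0.073, edgeR adjusted p = 0.02) and by 0.38 in cKO (SE 0.096, edgeR adjusted p = 0.0275). Rad54l, the motor of homologous recombination, was higher in Chd8neo/neo at 0.23 (SE 0.057, edgeR adjusted p = 0.0267). Btaf1, which removes TBP from promoters, was higher in Chd8neo/- at 0.32 (SE 0.054, edgeR adjusted p = 0.0021) in 17 of 17 alternatives. Ino80 at -0.24 (SE 0.057, 0.0169) and Smarcad1 at -0.15 (SE 0.039, 0.0251) were lower there, each in 10 of 17 alternatives, with smallest values of -0.17 and -0.015. The calls of Smarca1 and Rad54l in Chd8neo/neo were kept in 12 and 11 of 17, and that of Smarca1 in cKO in 12 of 16.

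In cKO vesicles the SWI/SNF motor Smarca4 was higher at 0.48 (SE 0.071, edgeR adjusted p = 0.00251, kept in 16 of 16 alternatives), as were Srcap, which installs H2A.Z, at 0.52 (SE 0.132, edgeR adjusted p = 0.0289) and Ercc6 at 0.22 (SE 0.057, edgeR adjusted p = 0.0341). Zranb3 at -0.28 (SE 0.061, edgeR adjusted p = 0.0165) and Smarcad1 at -0.23 (SE 0.053, edgeR adjusted p = 0.0206) were lower. Srcap kept its call in 12 of 16 alternatives, Ercc6 in 9, and Zranb3 and Smarcad1 in 13 each. Between the mutants, Chd8neo/neo against Chd8+/- had Smarca1 (-0.34, edgeR adjusted p = 0.0255) and Smarca2 (-0.36, 0.0494) lower and Rad54l (0.21, 0.0455) higher. Chd8neo/- against Chd8+/- had Atrx (-0.22, edgeR adjusted p = 0.0112), Smarcad1 (-0.16, 0.0271) and Shprh (-0.14, 0.0277) lower and Btaf1 (0.35, 0.00377) higher. Btaf1 kept its call in 17 of 17 alternatives, Atrx in 14, Smarcad1 in 9 and Shprh in 6, and the values nearest 0 were -0.028 for Atrx and -0.018 for Smarcad1, while that of Shprh turned to 0.009. Against Chd8+/-, the Chd8neo/neo calls of Smarca1, Rad54l and Smarca2 were kept in 10, 6 and 3 of 17. Along the genotype order 4 of the 21 rose, led by Btaf1 at 0.10 per step (edgeR adjusted p = 0.00965), Rad54l at 0.07 (0.0282) and Ercc6 at 0.06 (0.0328). A further 4 fell, led by Atrx at -0.09 (0.000772), Smarcad1 at -0.06 (0.0109) and Ino80 at -0.07 (0.02). Of all genes 7.41% rose and 8.25% fell along this order.

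The genes around Chd8 on chromosome 14 were followed because the alleles are inserted there. Of the 7 neighbours tested, 0 were called in any comparison at E12.5 by edgeR, beside the shares of all genes given above. In the E10.5 vesicles 1 was higher and 1 lower, against 5.75% and 5.7% of all genes. In cKO, Tox4 was higher at 0.25 (SE 0.056, edgeR adjusted p = 0.0171) and Mettl3, the catalytic subunit of the RNA m6A writer, was lower at -0.47 (SE 0.085, edgeR adjusted p = 0.00748); Mettl3 kept its call in 16 of 16 alternatives and Tox4 in 13.

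The pattern of Chd8 over the 12 libraries at E12.5 was compared with that of 18152 other genes by Pearson's correlation of log2 CPM, as a description. Among the genes most like it were Immt (0.94), Gm9855 (0.91), Tfcp2 (0.90) and Mrpl33 (0.89), and those most unlike it were Mindy3 (-0.93), Fundc1 (-0.92), Tsga10 (-0.92), Fpgt (-0.91) and Fam81a (-0.90). Immt, a scaffold of mitochondrial cristae, was at 166, 159, 163 and 155 CPM in Chd8+/+, Chd8+/-, Chd8neo/neo and Chd8neo/-, respectively. Among the relatives the coefficient was 0.71 for Chd6, 0.65 for Chd3, 0.65 for Chd2 and 0.55 for Chd9, and lowest for Chd1l at 0.05. In the order of likeness over the 18152 genes, Chd6 stood at place 235, Chd3 at 440, Chd2 at 463, Chd9 at 1112 and Chd1l at 8083.

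The libraries held 38774591 to 61051667 counts at E12.5 and 49632937 to 68488879 at E10.5, and each had been sequenced in 2 runs, whose counts were added. The CPM of a member differed between the 2 runs of a library by at most 9.3% (Chd1) at E12.5 apart from Chd5 at 16%, and by at most 5.7% (Chd7) at E10.5 apart from Chd5 at 52.2%. The labelled tissue was checked against its markers. The telencephalic gene Lhx2 lay at 358 to 499 CPM at E12.5 and 243 to 304 CPM at E10.5, and Emx2 at 109 to 160 CPM and 138 to 164 CPM, while the midbrain and isthmus genes En1, En2 and Pax2 reached at most 1.46, 0.101 and 2.42 CPM in any library. Fgf8, which marks the isthmus but also the rostral forebrain, lay at 1.65 to 3.77 CPM at E12.5 and 8.57 to 15 CPM at E10.5. Neurod6 was at 0 in all libraries of E10.5. Blood genes summed to 4294 to 6846 CPM in Chd8neo/- against 2979 to 3662 CPM in Chd8+/+, and mesenchyme genes to 709 to 902 CPM in cKO against 565 to 660 CPM in Ctrl; their part in the values of the members was not tested. Reads of overlapping antisense genes cannot be separated in these counts. Of these genes Gm26590 had the most counts of its own, 202 beside 109770 of Chd8 at E12.5. Such counts do not show how many reads fell in the stretch that 2 genes share.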

How the data were processed

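The deposited tables hold raw counts for each gene in each run, made by the authors with Trim Galore 0.4.1, TopHat2 2.1.0 and featureCounts 1.5.0 on GRCm38 (Ensembl annotation); the command recorded at E12.5 sets no strand option, although the libraries were made with dUTP. For E10.5 the counting options are not given in the sources used here. All columns were used, and the 2 runs of a library were summed. In R 4.3.3, genes were kept by filterByExpr, scaled by TMM and tested with edgeR 4.0.16 (robust quasi-likelihood fits, Benjamini-Hochberg over all genes). One fit held the 12 libraries of E12.5 and another the 6 of E10.5, with no covariate. The fits were first tested on simulated counts. RPKM is CPM per 1000 bases of the tables' exon length. The paper states that replicates came from different litters. It also states that heterozygotes, mild hypomorphs and severe hypomorphs were bred from different crosses, with wildtype littermates as controls. The labels give neither the cross nor the litter of a library. At E12.5, differences between genotypes therefore cannot be separated from differences between crosses. The p-values measure the spread between these libraries only.

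The alternatives were DESeq2 1.42.0, RLE and upper quartile scaling, no filter, a block for the replicate number, single runs, a loess trend with exon length removed (span 0.5), a sex covariate read from Xist and Y-linked genes, fits restricted to the 2 groups, and fits without each library in turn. Removal of a GC trend as well (99.4% of tested genes had a GC value at E12.5, 99.5% at E10.5) and the length of the principal transcript were chosen after seeing the data. The block was checked from the deviations of same-numbered libraries, which for Chd8neo/neo and Chd8+/- correlated at 0.108, 0.195 and 0.199. The numbers may pair these 2 groups, but the coefficients are low, come from the same data, and no source names such a pairing. No cross that the paper describes yields both genotypes, so such a pair would not be littermates. In no other comparison were all 3 above 0.1, and elsewhere at E12.5 they ran from -0.268 to 0.078. Named partner genes are, per list, comparison and direction, up to 3 called genes with the smallest adjusted p; the genes likened to Chd8 are the 5 highest and 5 lowest coefficients among tested genes with a mean of at least 10 counts, and some genes these rules or the marker lists hold are not reported here. The members, lists and tests were chosen with earlier results of these data known.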

Additional observations from a re-analysis of the deposited data

How the results depend on the processing

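Of 1260 values of the 9 relatives under alternatives, 1154 kept their call or lack of one, 92 lost a call and 12 gained one. In 2, those of Chd6 in Chd8neo/- against Chd8+/-, the call was lost and the sign turned, to 0.008 with the length trend removed and 0.011 with the GC trend removed too. The number of members called fell from 4 to 2 in Chd8neo/neo against Chd8+/+ with the length trend, or both trends, removed or with only the 2 groups; from 5 to 3 in Chd8neo/- against Chd8+/+ with either trend removal; from 3 to 1 in Chd8neo/neo against Chd8+/- with the sex covariate or only the 2 groups; and from 6 to 3 (second run) or 2 (trend removals) along the genotype order. In Chd8neo/- against Chd8+/- it fell from 5 to 3 with upper quartile scaling, the sex covariate or the 2 groups, and to 2 with either run alone or either trend removal. Without 1 library the number ran from 2 to 6 in Chd8neo/neo and 4 to 5 in Chd8neo/- against Chd8+/+, from 1 to 4 and 2 to 3 in these against Chd8+/-, from 3 to 6 along the order and from 1 to 3 in cKO. The 6 in Chd8neo/neo were reached without Chd8neo/neo replicate 3, where Chd5 and Chd1l joined.

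Chd8 in Chd8neo/neo against Chd8+/+ moved to -0.065 and -0.063 with the trends removed and -0.18 (edgeR adjusted p = 0.0734) with the 2 groups, and to between -0.20 and -0.16 without 1 library. Its fall in Chd8neo/- against Chd8+/- was not called with upper quartile scaling (-0.15), the first or second run (-0.16, -0.17), the sex covariate (-0.16) or the 2 groups (-0.16), and moved to -0.013 with either trend removal; without 1 library it lay between -0.21 and -0.13. Its slope was not called without a filter (-0.17), with the first or second run (-0.17, -0.17) or with either trend removal (-0.11), and lay between -0.18 and -0.15 without 1 library. Places by level per exon length changed for 4 members with the principal transcript and for 0 to 2 without 1 library.

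With the replicate number as a block, 2 rather than 5 members were called in Chd8neo/- against Chd8+/-, where Chd8 was at -0.16 (edgeR adjusted p = 0.0631), and its slope of -0.17 was not called (0.0711). For Chd8neo/neo against Chd8+/-, the groups that the numbers may pair, the block took the calls from 994 to 572 genes and left the 3 members called. It changed no call of a member against the controls. The cause of these changes was not tested. Low counts limit Chd5 at E10.5.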
